A study of Rattus norvegicus with 3 samples.

Results

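Schwann cells are the glia of peripheral nerve. They wrap larger axons in myelin and hold bundles of thin axons in unmyelinated folds, and after injury they lose myelin genes and take on a repair state. Gingiva and the periodontal ligament carry sensory and autonomic fibres with both kinds of Schwann cell, so genes of this lineage give a view of nerve in oral connective tissue. The 8 genes described here were listed by symbol: Sox10, Gfra3, Ngfr, S100b, Mbp, Pmp22, Prx and Cnp. They had 12 of the 31099 probe sets on the array (a probe set is a group of short probes read together) and made up 8 of the 14217 genes analysed. All 8 were measured, and none was left out for a low value.

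The RNA came from 3 tissues of wild-type male Sprague-Dawley rats aged 9 weeks, with 1 array per tissue. Peri-implant connective tissue (PICT) was taken 4 weeks after the upper first molar was extracted, at 5 weeks of age, and a titanium alloy implant was set in the socket at once. Oral mucosal connective tissue (OMCT) came from the same site 4 weeks after extraction with no implant set, and periodontal connective tissue (PCT) from around an upper first molar. All were cut out by laser microdissection, per the labels. The design text once writes mice for PCT, while the sample labels give rat. The labels do not say how many animals went into an array. No test was run, because there is no spread between animals, and every difference below sets 1 array against 1 array.

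Values were deposited as linear intensities, whose median was 56.5 in PICT, against 34.3 in PCT and 57.4 in OMCT. Differences are therefore given on a log2 scale with each array's median subtracted, called relative log2 differences, and as deposited where that changes the reading. To count as higher or lower, a gene needed a relative log2 difference of at least 1 (2-fold) and had to lie at or above the array median on the brighter array. How far probe sets for the same gene disagree was measured as an SD. Only genes with several probe sets at or above the array median on the brighter array were used. In PICT minus PCT this SD was 0.44 (2666 genes), in PICT minus OMCT 0.40 (2635 genes) and in OMCT minus PCT 0.41 (2706 genes). Gaps wider than 2 of these SDs are called beyond the probe spread (0.88, 0.81 and 0.82). This spread is technical and says nothing of animals. It was not measured for probe sets under the median on both arrays of a comparison. The 3' to 5' signal ratio of Hk1, a measure of how far RNA was shortened, was 1.58 in PICT, against 2.80 in PCT and 1.97 in OMCT, and its part in the results was not tested.

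Sox10, Gfra3 and Ngfr, which mark the Schwann lineage and its growth factor receptors, were dimmest around the implant. By its brightest probe set, Mbp was about as bright around the implant as at the healed site and was brighter around the tooth. Another Mbp probe set was brightest around the implant. The Pmp22 probe sets were lowest around the implant by unequal amounts, and Prx and Cnp differed within the probe spread. Of the 8 members, 5 were lower in PICT than in PCT (Sox10, Gfra3, Ngfr, Mbp and Pmp22) and 0 were higher. Over all genes, 3.37% were lower and 3.98% higher in that comparison. The median over members was -1.39, against -0.13 over all genes. As deposited, 4 members were lower, all of these but Pmp22, where 0.9% of all genes were lower and 14.1% higher, and the member median was -0.79 against 0.47 over all genes. With the mean over the probe sets of each gene, 4 members were lower (Sox10, Gfra3, Ngfr and Pmp22), where 2.75% of all genes were.

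Sox10 is the transcription factor that sets and maintains the glial fate of neural crest cells, and melanocytes also use it. Its single probe set (1368439_at) had an intensity of 3.20 in PICT, against 35.3 in PCT and 36.8 in OMCT. Only the PICT value lay under the highest negative control of its array, which was 8.36 in PICT, against 5.71 in PCT and 3.60 in OMCT. With PICT set at that control and each array divided by its median, Sox10 was at least 6.95-fold lower in PICT than in PCT and at least 4.33-fold lower than in OMCT. The relative log2 differences were -2.50 and -1.93, both beyond the probe spread. The first met the 2-fold rule by a small margin of brightness, since Sox10 in PCT lay at percentile 50.6 of its array. The second did not count under the rule, because Sox10 lay at percentile 40.8 in OMCT. The spread for that comparison was measured on brighter probe sets than this. PCT and OMCT did not differ beyond the probe spread (OMCT minus PCT -0.57, and 0.05 as deposited).

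Gfra3 is the co-receptor for artemin, which signals through Ret, and is carried by pain-sensing neurons and by Schwann cells. Its intensity (1377680_at) was 11.5 in PICT, against 47.3 in PCT and 37.1 in OMCT, so it was lowest around the implant here too. The relative log2 difference was -2.08 for PICT minus PCT, -1.17 for PICT minus OMCT and -0.91 for OMCT minus PCT. All 3 were beyond the probe spread. Of these, PICT minus OMCT did not count under the 2-fold rule, because Gfra3 lay at percentile 40.9 in OMCT. Its spread, too, came from brighter probe sets. OMCT minus PCT was -0.29 as deposited, within the spread.

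Ngfr encodes p75, the neurotrophin receptor of immature, non-myelinating and repair Schwann cells, which basal epithelial cells and some stromal cells also carry. Its intensity (1368148_at) was 32.9 in PICT, against 77.5 in PCT and 75.3 in OMCT. The implant tissue was again the dimmest, and the other tissues were alike in intensity. The relative log2 difference was -1.65 for PICT minus PCT and -0.99 for PICT minus OMCT, the latter just short of 2-fold (-1.01 as deposited). OMCT minus PCT was -0.66, within the probe spread.

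S100b encodes the calcium-binding protein long used to stain Schwann cells, and fat, cartilage and dendritic cells also make it. Its intensity (1386903_at) was 11.4 in PICT, against 15.8 in PCT and 13.3 in OMCT, above the negative control but far under the median on every array. The relative difference of -0.89 for PICT minus PCT was just beyond the probe spread, and was -0.29 as deposited. That spread came from brighter probe sets and was not measured at the level of S100b. At this brightness the value depends on the order of steps, since a probe set at 0 on both arrays reads -0.60 when the constant 8.56 is added before the medians are subtracted. With each array divided by its median first, S100b differed by -0.76, within the spread, and PICT minus OMCT was -0.11.

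**Figure D1:**
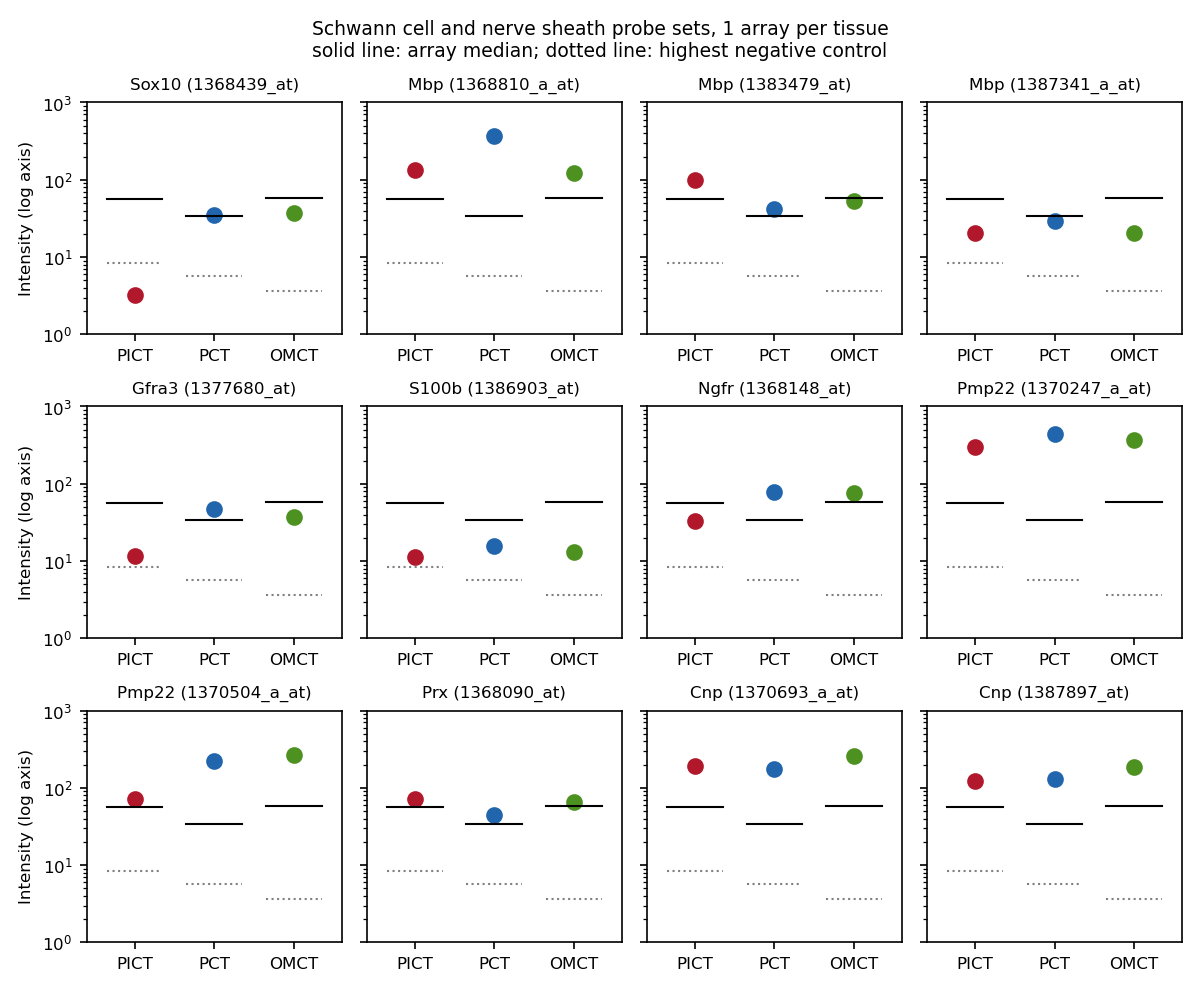
Intensity (log axis) of each of the 12 member probe sets on the PICT, PCT and OMCT arrays, 1 point per array, with the array median as a solid line and the highest negative control as a dotted line. Sox10 in PICT, at 3.20, is the only point under its dotted line, and the Mbp panels differ in which array is brightest.

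Mbp encodes myelin basic protein, which compacts the myelin membrane, and its longer Golli transcripts are made in immune and neural cells. The brightest of its 3 probe sets (1368810_a_at) had an intensity of 134 in PICT, against 374 in PCT and 123 in OMCT. The tooth tissue stood alone: PICT minus PCT was -2.02 and OMCT minus PCT -2.16 (-1.42 and -1.54 as deposited), while PICT minus OMCT was 0.14. A dim probe set (1387341_a_at) was also brightest around the tooth, with 20.6 in PICT, against 29.7 in PCT and 20.8 in OMCT and relative differences of -0.99 and -1.0 from PCT.

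The remaining Mbp probe set (1383479_at) ran differently. Its intensity was 99.7 in PICT, against 41.6 in PCT and 53.7 in OMCT, a relative difference of 0.51 for PICT minus PCT and 0.82 for PICT minus OMCT. The Mbp probe sets thus spanned 2.53 in PICT minus PCT, and a span as wide was found in 0.398% of the 4525 genes with several probe sets. Which Mbp transcripts each probe set reads was not tested. With the mean of its probe sets, Mbp differed by -0.84 between PICT and PCT and no longer counted as lower, and by -1.16 between OMCT and PCT, where it still did.

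Pmp22, a membrane protein of compact myelin that fibroblasts and epithelia also make, was measured by a pair of probe sets. The brighter (1370247_a_at) had an intensity of 303 in PICT, against 442 in PCT and 364 in OMCT, and the other (1370504_a_at) had 71.5, 222 and 267. Both were lowest in PICT, by relative differences of -1.13 and -2.13 from PCT. They parted against OMCT, at -0.24 and -1.76, and only the second was beyond the probe spread. As deposited the brighter probe set differed from PCT by -0.53, under 2-fold.

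Prx encodes periaxin, the scaffold that ties myelinating Schwann cells to dystroglycan through Drp2, and Cnp encodes the myelin enzyme CNPase, which many other cells make at lower levels. Prx (1368090_at) had an intensity of 70.6 in PICT, against 44.2 in PCT and 64.6 in OMCT. Its relative differences ran from -0.15 to 0.13, all within the probe spread. Cnp had 191, 175 and 256 with 1 probe set (1370693_a_at) and 124, 130 and 184 with the other (1387897_at). The relative PICT minus PCT differences of the Cnp probe sets were -0.49 and -0.66, also within the spread. As deposited, PICT minus PCT was 0.58 for Prx and 0.12 for Cnp, so their sign rests on the scaling.

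**Figure D2:**
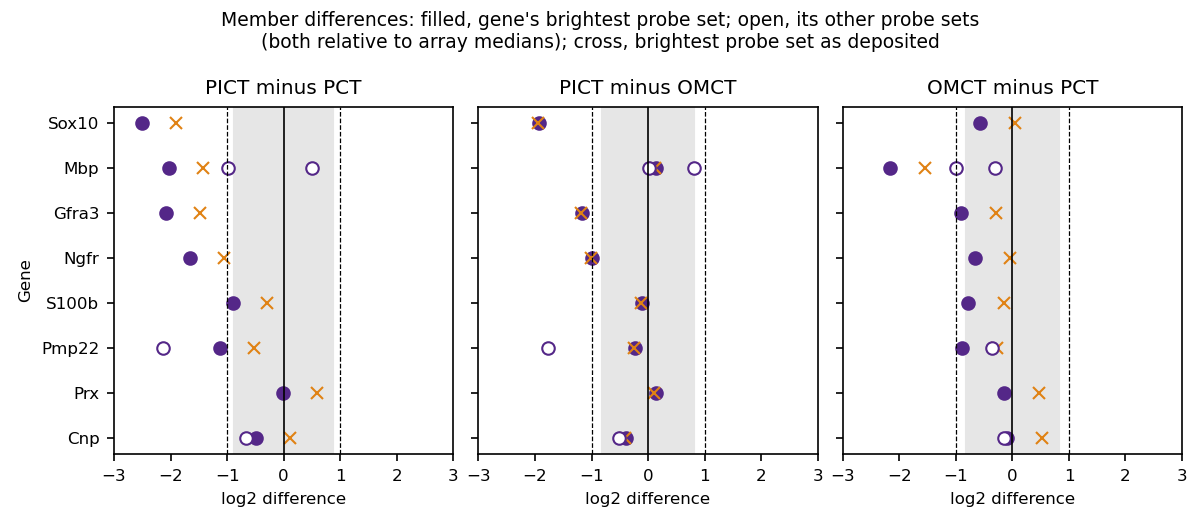
Log2 difference of each member for the 3 comparisons; filled circles are the brightest probe set of a gene and open circles its other probe sets, both relative to the array medians, and crosses are the brightest probe set as deposited. Dashed lines mark 2-fold and the grey band 2 SDs between probe sets of 1 gene (0.88, 0.81 and 0.82). For PICT minus PCT 5 filled circles lie left of the dashed line, and 1 open circle of Mbp lies to the right of 0.

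Against OMCT, 0 of the 8 members were higher or lower in PICT by the rule, where 4.15% of all genes were higher and 4.46% lower. The member median was -0.31, against -0.04 over all genes. Without the brightness condition Sox10 and Gfra3 counted as lower, where 6.34% of all genes did, and as deposited Ngfr did, where 4.64% of all genes were lower. The array medians of PICT and OMCT lay 0.02 apart on the log2 scale, so scaling moved these values little. In OMCT minus PCT, 1 member, Mbp, was lower and 0 were higher, where 4.81% of all genes were lower and 5.66% higher. As deposited Mbp was again the 1 lower member, where 2.1% of all genes were lower and 17.6% higher. The member median was -0.72 (-0.10 as deposited), against -0.08 over all genes. On the relative scale PCT was the highest array for 8 of 8 members, as it was for 42.2% of all genes, though 1 probe set of Mbp was highest in PICT. As deposited PCT was highest for 5 of the 8, with Sox10 and Cnp highest in OMCT and Prx in PICT. PICT was the lowest for 6, all but Mbp and Prx, as it was for 38.5% of all genes. The comparisons share arrays, so their counts are not independent. In tissue sections, fewer Schwann cells and less of each RNA per cell cannot be told apart.

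Schwann cell genes are known to be driven by Sox10 and Egr2, and the promoters of Pmp22 and Cnp are shown. The brighter probe sets of these members differed by -1.13 and -0.49 in PICT minus PCT and by -0.24 and -0.39 in PICT minus OMCT. Whether a match goes with the size of a difference was not tested. Of the 8 members, 6 matched an entry of the RefSeq promoter table (build GRCr8), of which the 250 bases before the start were searched on both strands. The letters ACAAAG or ACAATG, a core that SOX factors bind, were present for 2 members, Mbp and Cnp, and in 25.3% of all 33469 promoters. The letters GTGGGCG, a core that EGR factors bind, were present for 0 of the 6 and in 6.27% of all promoters. Mbp had 2 entries, and 1 of them held 3 SOX-type matches. Capitals mark the Cnp match, which starts at position -203 from the start site. Pmp22 is at chr10:48294682-48294931 and Cnp at chr10:86011254-86011503, both on the plus strand. A match is only a match of letters.
Pmp22: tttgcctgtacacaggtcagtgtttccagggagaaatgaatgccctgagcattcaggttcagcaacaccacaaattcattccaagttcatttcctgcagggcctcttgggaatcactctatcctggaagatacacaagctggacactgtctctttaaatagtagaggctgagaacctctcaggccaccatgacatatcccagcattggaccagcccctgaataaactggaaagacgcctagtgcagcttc
Cnp: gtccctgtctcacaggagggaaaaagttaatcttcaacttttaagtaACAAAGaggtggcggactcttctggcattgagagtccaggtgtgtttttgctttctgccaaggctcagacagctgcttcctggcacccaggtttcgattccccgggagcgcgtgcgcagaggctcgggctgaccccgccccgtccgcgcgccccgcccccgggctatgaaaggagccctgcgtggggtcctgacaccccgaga

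Other myelin genes were measured for 13 of 17 listed. In PICT minus PCT, 4 were lower and 1 higher (median -1.0), where 3.37% of all genes were lower. As deposited 2 were lower and 1 higher (median -0.40). Fa2h, which makes the hydroxylated lipids of myelin and of skin, had an intensity of 10.1 in PICT, against 103 in PCT and 23.6 in OMCT, a PICT minus PCT difference of -3.18. Pllp, the myelin proteolipid plasmolipin, had 21.3, 56.9 and 29.7, a difference of -1.74. Mal, a raft proteolipid of myelin and of epithelium, had 53.8, 73.9 and 21.3, and its OMCT minus PCT difference was -2.09. All 3 were brightest around the tooth, like the main Mbp probe set. Egr2, the transcription factor of myelination that macrophages also induce, ran the other way with 170, 25.1 and 48.8, higher in PICT by 1.80 than in PCT and by 1.66 than in OMCT. In OMCT minus PCT, 4 of the 13 were lower and 0 higher (median -0.66), where 4.81% of all genes were lower. As deposited 2 were lower (median -0.04), where 2.1% of all genes were.

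Genes of immature and non-myelinating Schwann cells did not share a direction. Of 11 measured, 2 were lower and 1 higher in PICT than in PCT (median 0.03), where 3.37% of all genes were lower and 3.98% higher. As deposited 1 was lower and 2 were higher (median 0.64), where 0.9% of all genes were lower and 14.1% higher. Between PICT and OMCT 0 passed the rule, where 4.46% of all genes were lower and 4.15% higher. Scn7a, a sodium channel of non-myelinating Schwann cells, had an intensity of 96.8 in PICT, against 316 in PCT and 183 in OMCT, a difference of -2.23 for PICT minus PCT. L1cam, an adhesion molecule of unmyelinated fibres, had 24.3, 36.5 and 16.1 and differed by -1.06 (-0.45 as deposited, under 2-fold). Ncam1, an adhesion molecule of the same fibres and of many stromal cells, had 245, 36.6 and 164 and was higher in PICT by 1.89. Among 10 measured repair genes 0 were higher or lower in PICT than in PCT. Gap43, a growth cone protein that repair Schwann cells also make, was bright in OMCT alone, with 19.5 in PICT, against 26.6 in PCT and 183 in OMCT. It was lower in PICT than in OMCT by a difference of -2.75.

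The ligands and receptors around Gfra3 and Ngfr were mostly dim. Of 6 measured neurotrophic ligands 0 passed the rule in PICT minus PCT, where 3.37% of all genes were lower and 3.98% higher. Gdnf, the glial ligand of the Gfra family, had an intensity of 12.1 in PICT, against 11.4 in PCT and 38.4 in OMCT. Bdnf, a ligand of Ntrk2 and p75, had 144, 94.7 and 57.4 and was higher in PICT than in OMCT by 1.23. Ret, the signalling partner of Gfra3, was under the negative control in PICT (5.78) and PCT (0.105). In OMCT it had 6.10, above a control that was lower there (3.60, against 8.36 in PICT). The PICT value is thus only a bound, so the relative difference of -0.01 for PICT minus OMCT does not show whether Ret was alike there. Artn was not analysed here. Of 13 receptors and partners, 2 were lower and 0 higher in PICT than in PCT, where 3.37% of all genes were lower. Ntrk2, the receptor for Bdnf, stood out in OMCT by the brightest of its 5 probe sets. That probe set had 51.9 in PICT, against 130 in PCT and 720 in OMCT, a PICT minus OMCT difference of -3.57. Sorcs2, a partner of p75, had 48.5, 97.7 and 37.9 and was lower in PICT than in PCT by a difference of -1.50 (-0.90 as deposited, under 2-fold).

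Neuregulin signalling drives Schwann cell growth and myelin thickness. In PICT minus PCT, 1 of 8 genes was lower, Bace1, the protease that activates Nrg1, at -1.24 (69.7 in PICT, against 113 in PCT and 85.3 in OMCT). It was -0.63 as deposited, and then 0 of the 8 were lower. Over all genes, 3.37% were lower on the relative scale and 0.9% as deposited. In OMCT minus PCT, 4 of 8 were lower and 0 higher (median -1.0), where 4.81% of all genes were lower and 5.66% higher. As deposited 0 were lower (median -0.38), where 2.1% of all genes were. Nrg1 itself had 152 in PICT, against 116 in PCT and 57.9 in OMCT. The receptor Erbb3 had 87.0, 98.8 and 60.6, and its partner Erbb2 had 80.7, 63.5 and 45.7. These were dimmest in OMCT, and oral epithelium also expresses them. In OMCT 7 of 8 measured markers of differentiated epithelium were lower than in PCT, and their part here was not tested.

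Genes of the axon itself gave a partial parallel. Nefl, the light neurofilament chain, had an intensity of 0.924 in PICT, against 35.9 in PCT and 11.2 in OMCT, and only the PICT value was under the negative control. With PICT set at that control and each array divided by its median, Nefl was at least 7.08-fold lower in PICT than in PCT. This bound rests on that scaling. The medium chain Nefm, named after its values were seen, had 0.932, 11.6 and 7.69. Of 22 axon and neuron genes, however, 1 was lower and 0 higher in PICT than in PCT (median -0.56, and -0.27 with each array divided by its median first). Over all genes 3.37% were lower and 3.98% higher, so the lower count was near the share over all genes. In PICT 12 of the 22 were not above the negative control, against 7 in PCT and 3 in OMCT. That control was 8.36 in PICT, against 5.71 in PCT and 3.60 in OMCT. These counts therefore do not share a floor and do not rank the arrays. Map2, a microtubule protein of neurons, had 378, 301 and 82.6, lower in OMCT than in PCT by a difference of -2.39. Npy, a peptide of sympathetic fibres, had 49.4, 47.1 and 24.9, a difference of -1.36 (-0.73 as deposited, under 2-fold). At nodes and paranodes 2 of 10 genes were lower and 0 higher in PICT than in PCT, where 3.37% of all genes were lower. As deposited 1 was lower and 2 were higher, where 0.9% of all genes were lower and 14.1% higher. The 2 lower on the relative scale were Cntn1, the paranodal contactin (37.3 in PICT, against 103 in PCT and 23.4 in OMCT, -1.89), and Epb41l3, a cytoskeletal linker (175, 276 and 368, -1.24, and -0.63 as deposited). Ank3, the nodal ankyrin that epithelium also makes, had 251, 145 and 82.8.

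**Figure D3:**
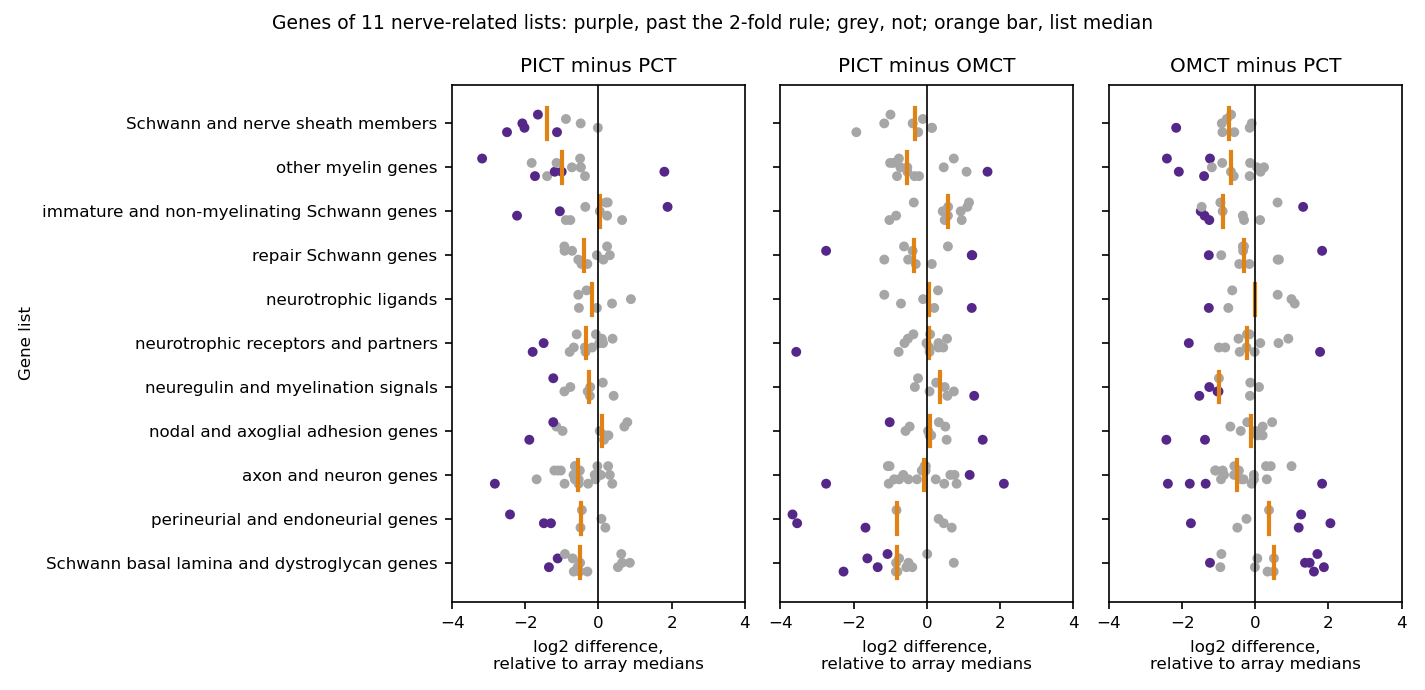
Relative log2 difference of each measured gene in the member list and in 10 other nerve-related lists, for the 3 comparisons; purple points passed the 2-fold rule, grey points did not, and orange bars are list medians. Among the lists drawn, the member and myelin lists have the lowest medians for PICT minus PCT (-1.39 and -1.0). The endoneurial and basal lamina lists have medians above 0 for OMCT minus PCT. Marker lists of other cells, not drawn, have PICT minus PCT medians of -1.29 (chondrocyte) and -1.24 (endothelial). With each array divided by its median first, these are -0.98 and -1.32, against -1.46 for the members.

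Some genes of the sheath around nerve fibres were brightest at the healed extraction site. Of 7 perineurial and endoneurial genes, PICT was lower than OMCT for 3 and higher for 0 (median -0.83). Over all genes, 4.46% were lower in that comparison. PICT was also lower than PCT for 3 and higher for 0 (median -0.49), where 3.37% of all genes were lower. As deposited it was lower than PCT for 1 and higher for 0 (median 0.11), where 0.9% of all genes were lower. In OMCT minus PCT 3 of the 7 were higher, where 5.66% of all genes were, and 1, Cldn1, was lower. The summed intensity of the 7 over the array median was 64.5 in PICT, against 71.2 in PCT and 64.6 in OMCT. Wif1, a Wnt antagonist, had an intensity of 70.3 in PICT, against 138 in PCT and 925 in OMCT. Apod, a lipocalin of endoneurial and other fibroblasts, had 6.20, 43.4 and 182, and the PICT value was under the negative control. Etv1, a transcription factor, had 110, 101 and 376. In PICT minus OMCT the differences were -3.55 for Wif1 and -1.68 for Etv1. With PICT set at its negative control and each array divided by its median, Apod was at least 21.4-fold lower in PICT than in OMCT. Cldn1, a perineurial and epithelial claudin, had 152, 251 and 110. For 13 genes of the Schwann basal lamina and its receptors, PICT was lower than OMCT for 4 and higher for 0 (median -0.81). Against PCT, PICT was lower for 2 and higher for 0 (median -0.51). As deposited it was higher than PCT for 4 and lower for 0 (median 0.09), where 14.1% of all genes were higher. The direction against PCT thus rests on the scaling. Lama2, the laminin chain of nerve and muscle, had 272, 286 and 1370, Lama4 had 383, 170 and 999, Lamc1 had 1274, 540 and 2731, and the sarcoglycan Sgce had 43.5, 65.8 and 155. These genes are shared with vessels and fibroblasts, and 3 of 7 fibroblast markers were likewise dimmer in PICT than in OMCT.

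Several members are also made by other cells, whose markers differed between the arrays. Basal keratins of epithelium were bright on all arrays labelled connective tissue: Krt5 had an intensity of 7965 in PICT, against 9565 in PCT and 8595 in OMCT, and Krt14 had 7491, 8911 and 6894. Col1a1, the fibroblast collagen, had 5552, 6651 and 8189. Sums of marker intensity are given over the array median, with 1 probe set per gene, and weigh the brightest genes most. The 6 basal keratinocyte markers summed to 367 in PICT, against 713 in PCT and 379 in OMCT, so PCT was the highest, as for the summed members (13.4, 35.3 and 16.9). Before division by the median the members summed to 758, 1211 and 970. The 6 keratinocyte markers then summed to 20714, 24453 and 21723, a narrower gap than after division. Relative to PCT, 2 of these 6 markers were lower in PICT. The 5 endothelial markers summed to 42.3 in PCT and 42.6 in OMCT and were lower in PICT. By the rule PICT was lower than PCT for 4 of them (for 2 as deposited) and lower than OMCT for 4. Over all genes, PICT was lower than PCT for 3.37% (0.9% as deposited) and lower than OMCT for 4.46%. The 5 macrophage markers summed to 36.2, 3.70 and 41.9, and Tyrobp had an intensity of 1121, 45.1 and 1005. The 5 melanocyte markers, cells that also use Sox10, were all under the array median on every array, and Tyr was under the negative control on each. Their sums were at most 1.67, in PCT. Of 5 chondrocyte markers 2 were lower in PICT than in PCT (sums 1.20, 7.47 and 3.32), and Col9a1 was under the negative control on every array. The 6 adipocyte markers summed to 13.4, 4.01 and 15.7. The 6 skeletal muscle markers summed to 61.5, 80.9 and 30.1, with Myh4 under the negative control on every array, and the 5 dendritic and T cell markers to 9.26, 3.26 and 7.92. The median PICT minus PCT difference was -1.29 for chondrocyte, -1.24 for endothelial and -0.97 for skeletal muscle markers, against -1.39 for the members. It was -0.86 for basal keratinocyte, -0.66 for melanocyte, -0.42 for adipocyte and -0.31 for differentiated epithelium markers. For fibroblast markers it was -0.01, for dendritic and T cell markers 0.63 and for macrophage markers 2.38. With each array divided by its median first, it was -1.46 for the members, -1.32 for endothelial and -0.98 for chondrocyte markers. Basal keratinocyte markers then had -0.98, skeletal muscle -0.69, differentiated epithelium -0.42, melanocyte -0.28 and adipocyte markers -0.14. Fibroblast markers had -0.12, dendritic and T cell markers 0.61 and macrophage markers 2.36. A probe set at 0 on both arrays reads -0.60 without that step. The part of these cells in the members' differences was not tested.

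**Figure D4:**
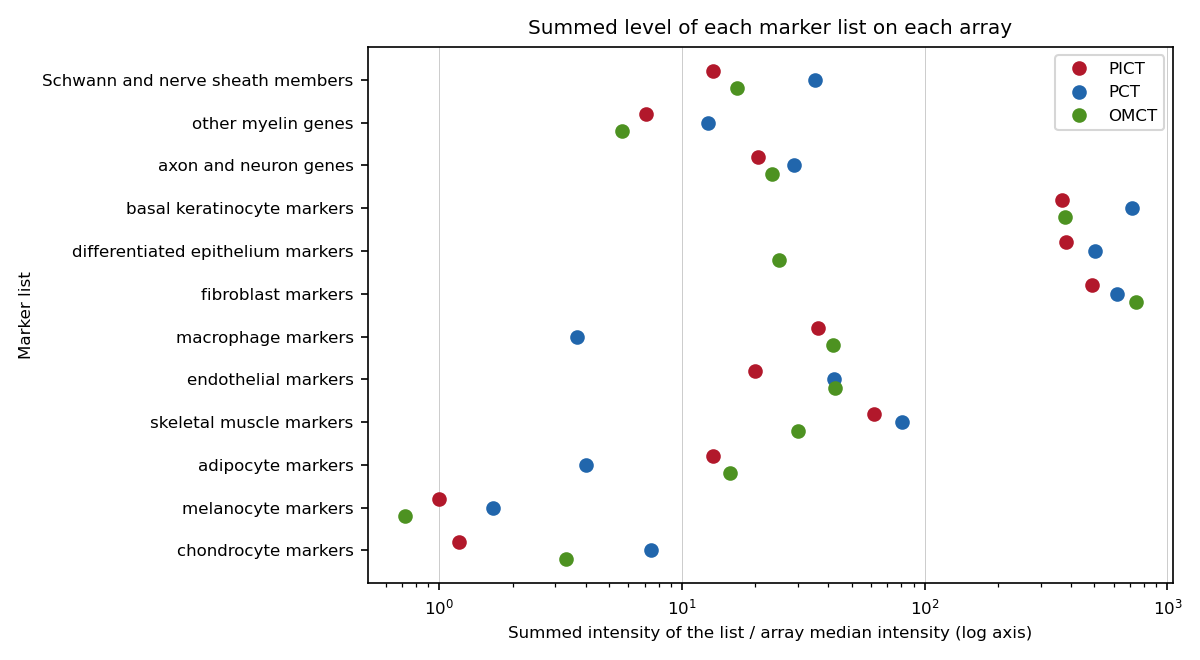
Summed intensity of each marker list divided by the array median intensity (log axis), 1 point per array, for the members, nerve lists and other cell types. The members stand at 13.4 in PICT, against 35.3 in PCT and 16.9 in OMCT. Their sum is led by the brightest members, Pmp22, Mbp and Cnp, with intensities of 442, 374 and 175 in PCT. The endothelial markers stand at 42.3 in PCT and 42.6 in OMCT, with PICT below both.

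Likeness to the members was measured as the distance between the 3 relative log2 values after each gene's own mean was subtracted, over 9853 genes at or above the median on at least 1 array. No distance is given for Sox10, whose PICT value is only a bound. For Gfra3 the nearest genes were Parm1 (0.08) and Sfrp2 (0.15), with 14 genes within 0.25. Ngfr lay nearest Igfbp5 (0.05) and Cdc42bpb (0.07), with 48 genes within the limit. The main Mbp probe set lay nearest Lepr (0.05) and Dmp1 (0.16), with 5. Flatter profiles had many neighbours: 181 genes lay within the limit for Pmp22, nearest Pygb and Itm2b, 1338 for Cnp, nearest Itga7 and Il20rb, and 2035 for Prx, nearest Cep20 and Prelid1. S100b lay nearest Rmnd5b and Krt5, with 366. These distances rest on 3 arrays each.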

How the data were processed

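Biotin-labelled RNA (GeneChip 3'IVT Express, per the labels' protocols) was read on a rat GeneChip, 1 array per tissue. The authors deposited 1 linear intensity for each probe set. Their probe summary and scaling are not stated in the sources used. Of 31099 probe sets, 20826 that are not controls had 1 gene symbol in the platform annotation of 2016 and were kept, and the rest were not used. Each gene was represented by its probe set with the highest mean. For genes other than the members only that probe set is given, though some have several (5 for Ntrk2, 8 for Nrg1 and 2 for Nefl). Their other probe sets are not reported here. Values were computed with Python 3.11.15 and pandas 2.3.3 as log2 of the intensity plus a pseudocount of 8.56 (the 20th percentile over the arrays), minus the array median. The constant pulls differences of dim genes toward an offset set by the array medians, -0.60 for PICT minus PCT. The highest of the TrpnX probe sets served as the negative control. The number of arrays limits the precision, and with 1 array per tissue no p-value was computed.

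The members, lists and tests were chosen with earlier results of these data known. Named genes are all members, up to 4 genes per nerve-related list past the 2-fold rule by size of difference, Erbb3, Gdnf, Artn and Ret as partners, and Krt5, Krt14, Col1a1 and Tyrobp as markers of other cells. Other genes named as markers were chosen after their values were seen. The 2 genes nearest each member but Sox10 in profile were also named. Some listed genes are not reported here. Genome coordinates are given only for RefSeq promoters.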

Additional observations from a re-analysis of the deposited data

How the results depend on the processing

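In 7 alternatives the processing differed in the scaling, the pseudocount, the filter on dim genes or the probe sets used, and 1 more, each array divided by its median before the pseudocount, was chosen after seeing the data. Dividing by the trimmed mean and quantile normalization kept every member count and moved no member median beyond the probe spread. Members lower in PICT than in PCT numbered 3 (Sox10, Mbp and Gfra3) with a pseudocount at the median of all values, with a member median of -0.90. As deposited the median was -0.79. Members lower in PICT than in OMCT numbered 1 as deposited (Ngfr), 1 with a pseudocount of 1 (Ngfr) and 2 with no filter on dim genes. With the mean over probe sets the member median there was -0.72. Members lower in OMCT than in PCT numbered 3 with a pseudocount of 1 (Mbp, Gfra3 and Pmp22) and 2 with the arrays divided by their medians first (Mbp and Pmp22), and the member median was -0.10 as deposited. Under all 8 alternatives 0 members were higher in any comparison. Of 168 recomputed differences of single members, 136 stayed within 1 SD between probe sets, 32 moved beyond it and 0 of those past the 2-fold rule changed sign. Counts over all genes moved too: for PICT minus PCT, 2009 higher and 128 lower as deposited, against 566 and 479 relative to the medians, and for OMCT minus PCT 2501 and 298 against 805 and 684. With the larger pseudocount the lower calls were 130 for PICT minus PCT and 335 for OMCT minus PCT, and PICT minus OMCT had 355 higher and 379 lower against 590 and 634. With no filter the lower calls were 945 for PICT minus PCT and 1163 for OMCT minus PCT. No paired analysis was possible because each tissue has 1 array and the labels carry no replicate numbers. Sox10, Nefl, Nefm and Apod lay under the negative control in PICT, so their folds against PICT are bounds and their fitted differences depend on the pseudocount. S100b was above the control but dim on all arrays.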
